A study of Mus musculus with 8 samples.

Results

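The 9 genes described here are Nnt, Jakmip3, Sall3, Tmem254a, Lrmda, Atp8b3, Gm16867, Tmod4 and Sprr4, none of them on chromosome 11, among 21536 genes named on the array. They were chosen from these same arrays because their signal seemed present or absent by the origin of the mice, so the differences between groups given below are a description and carry no test. All probes with one of these names were used, 15 of 41174. The cultures were bone marrow from the femurs of 10-week-old mice, grown for 5 days with IL-7, a growth factor of B cell precursors. All mice are given as C57BL/6, and there were 4 groups with 2 arrays each. The Bob1 wild-type group is Bob1+/+, and the Bob1 knockout group is Bob1-/- and lacks Bob1 (Pou2af1), a coactivator of octamer-binding transcription factors. The BL6 wild-type group is given the genotype C57BL/6Ncrl, and the miR-146a knockout group is mir-146a-/- and lacks a microRNA that restrains inflammatory signalling. In each group array A came from female and array B from male mice. A group's 2 arrays are described as biological duplicates, but neither the number of mice behind a culture nor the keeping of the colonies is given, so the spread is that between cultures.

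Sublines of one inbred mouse strain drift apart when they are bred separately, and a knockout made in one strain can keep stretches of the donor genome after crossing to another. C57BL/6J mice, for example, are known to carry a deletion within Nnt that other C57BL/6 sublines do not. The 9 genes have unrelated roles. Nnt makes NADPH from NADH in the inner mitochondrial membrane, Sall3 is a zinc finger transcription factor of development, Jakmip3 is a protein that binds Janus kinases and microtubules, and Lrmda is a leucine-rich protein linked to melanocyte differentiation. Atp8b3 is a lipid flippase of sperm, Tmod4 caps actin filaments in skeletal muscle, Sprr4 belongs to the small proline-rich proteins of the skin barrier, Tmem254a encodes a transmembrane protein, and Gm16867 is a predicted gene.

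A signal on these arrays stands for the 60 bases of a probe, and for Jakmip3, Sall3 and Atp8b3 the choice of probe decided whether a signal was seen. The probe sequences of 4 members are shown as the scanner files give them, 5′ to 3′, in lower case with no base marked. The 2 Jakmip3 probes are given because only 1 of them gave a signal, the Nnt probe because it lies within the coding part of a gene that was lower without being absent, and the Tmod4 and Sprr4 probes because both genes were highest on the same 2 arrays. Positions are those of mm9.

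Jakmip3 A_52_P374053, chr7:146211870-146212469, plus strand: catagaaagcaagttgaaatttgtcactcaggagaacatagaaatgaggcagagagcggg
Jakmip3 A_51_P193230, chr7:146199438-146209219, plus strand: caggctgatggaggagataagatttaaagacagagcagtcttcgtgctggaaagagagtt
Nnt A_51_P113399, chr13:120125108-120125167, minus strand: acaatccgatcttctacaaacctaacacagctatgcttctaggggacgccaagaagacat
Tmod4 A_51_P258829, chr3:94931741-94931800, plus strand: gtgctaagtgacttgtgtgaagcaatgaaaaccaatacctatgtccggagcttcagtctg
Sprr4 A_51_P225903, chr3:92304195-92304254, minus strand: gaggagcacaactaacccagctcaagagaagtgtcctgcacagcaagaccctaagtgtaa

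The bases of each Jakmip3 probe are spread over a genomic span longer than the probe, 600 bases for A_52_P374053 and 9782 bases for A_51_P193230, so each crosses at least 1 intron.

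A level here is the log2 processed signal of a probe minus the 75th percentile of its array, so a level of 0 is a bright probe. Per array, 60.5% to 66.1% of probes gave a signal well above background, and the dimmest such probe lay between -6.17 and -5.32. The Bob1 knockout arrays had the 2 highest of these limits, -5.32 and -5.67, and the levels of probes that were not well above background were also less negative there. Arrays of a group correlated at 0.988 to 0.993 and arrays of different groups at 0.97 to 0.994, across probes. Pou2af1 stood at 6.48 ± 0.11 in Bob1 wild-type and 2.77 ± 0.08 in Bob1 knockout cultures (SD, n = 2; log2 difference -3.71, SE 0.16, limma adjusted p = 0.000288). All 10 B cell precursor markers and all 7 myeloid markers on the array were well above background in each group, with a summed level (log2 of the summed relative signal) of 9.35 to 9.69 and 9.84 to 10.45. The cultures are mixed, and fewer cells of a type and less RNA per cell cannot be told apart.

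Of the 9 genes, 4 were well above background on all 8 arrays (Nnt, Tmem254a, Lrmda and Tmod4, 6 probes). For these the label of a present or absent transcript did not hold, and they differed in level. The other 5 genes had 1 probe each with a signal well above background in 1 group, on both its arrays, and on none of the other 6. Another 4 probes of these genes were well above background on no array. In all, 11 of the 15 probes could enter the fits, which required a signal well above background on the 2 arrays of any 1 group, and 5 of them passed only through the group in which they were high.

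**Figure D1:**
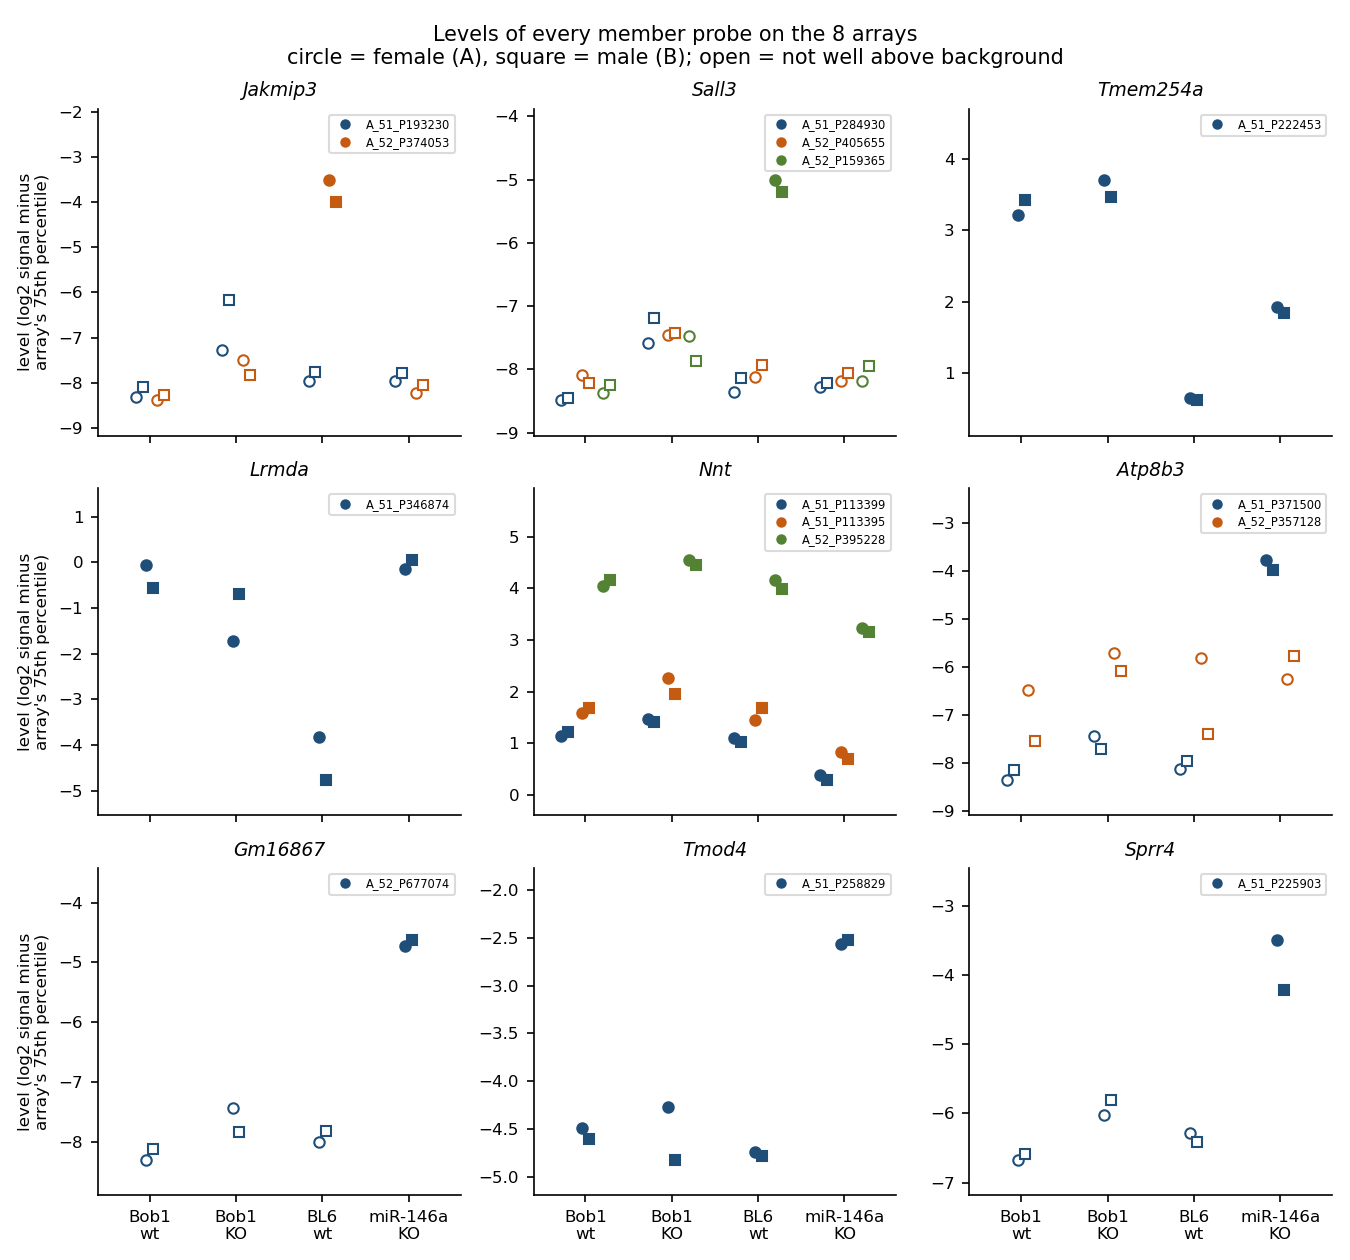
Levels of the 15 probes on the 8 arrays, in 1 panel per gene, with the 4 groups along the horizontal axis and the level in log2 on a vertical axis that differs between panels; circles are female and squares male cultures, and open symbols are not well above background. Filled symbols stand alone in BL6 wild-type for Jakmip3 and Sall3 and in miR-146a knockout for Atp8b3, Gm16867 and Sprr4, while Nnt, Tmem254a, Lrmda and Tmod4 are filled throughout.

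In BL6 wild-type cultures alone, Jakmip3 and Sall3 gave a signal. Jakmip3 A_52_P374053 stood at -3.52 and -3.99 on the BL6 wild-type arrays, at -8.39 and -8.27 in Bob1 wild-type, -7.49 and -7.83 in Bob1 knockout, and -8.23 and -8.04 in miR-146a knockout cultures. The BL6 wild-type arrays lay 3.5 above the nearest other array. None of the other 6 was well above background, so this gap is no measure of size. Where a group is not well above background a fold is an approximate bound, here and for every bound below. It was computed against the dimmest probe well above background on each such array, or against the probe itself where that was brighter. Some probes above that limit were still not well above background, so the bounds are not strict. On BL6 wild-type array A, Atp8b3 A_52_P357128 was such a probe at -5.81, where the limit was -6.04. The BL6 wild-type level was at least 5.32-fold higher than in Bob1 wild-type, at least 3.34-fold higher than in Bob1 knockout and at least 4.66-fold higher than in miR-146a knockout cultures. The other Jakmip3 probe, A_51_P193230, was not well above background on any array and ranged from -8.31 to -6.16, with its 2 highest levels in Bob1 knockout cultures.

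Sall3 has 3 probes on chromosome 18, and A_52_P159365 (chr18:81163136-81163195, minus strand) was the 1 with a signal. It read -5.01 and -5.20 in BL6 wild-type cultures, -8.37 and -8.24 in Bob1 wild-type, -7.47 and -7.87 in Bob1 knockout, and -8.19 and -7.95 in miR-146a knockout cultures. The groups did not overlap, but the signal was dim: the bounds were at least 2.08-fold, at least 1.31-fold and at least 1.83-fold over those 3 groups. The probes A_51_P284930 and A_52_P405655 lie nearer the start of the transcript and were not well above background on any array, with levels of -8.49 to -7.18 and -8.22 to -7.43. Over the 41174 probes, 14 (0.034%) were well above background on both BL6 wild-type arrays and on no other, and 2 of these 14 are the Jakmip3 and Sall3 probes that the choice picked out.

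Tmem254a and Lrmda, 2.87 Mb apart on chromosome 14, were lowest in BL6 wild-type cultures. Tmem254a (A_51_P222453, chr14:26743953-26744012, minus strand, under an older name in the scanner files) read 3.21 and 3.42 in Bob1 wild-type, 3.7 and 3.46 in Bob1 knockout, 0.66 and 0.62 in BL6 wild-type, and 1.93 and 1.85 in miR-146a knockout cultures. The levels formed 3 tiers. The 2 Bob1 groups were highest and lay only 0.05 apart at their nearest arrays, with a difference of means of 0.27 against SDs of 0.15 and 0.16. The miR-146a knockout arrays lay between, 2.38-fold above BL6 wild-type, and Bob1 wild-type was 6.39-fold above BL6 wild-type. RefSeq's table for assembly GRCm38.p6 also lists Tmem254b and Tmem254c. The promoter windows of 300 bases of Tmem254a and Tmem254c were 100% identical at their best-matching starts, and those of Tmem254a and Tmem254b 89.9%. These windows do not hold the probe, and transcript sequences were not compared, so which copies this probe reads is uncertain.

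Lrmda (A_51_P346874, chr14:23875226-23875285, plus strand) read -0.07 and -0.57 in Bob1 wild-type, -1.72 and -0.69 in Bob1 knockout, -3.83 and -4.77 in BL6 wild-type, and -0.15 and 0.05 in miR-146a knockout cultures. The BL6 wild-type arrays were lowest, 2.12 below the nearest other array, yet still well above background. The 5 stromal and endothelial markers had a summed level of 0.45 to 0.49 in BL6 wild-type, 1.06 to 1.88 in Bob1 wild-type, -0.15 to 1.60 in Bob1 knockout and 0.29 to 1.14 in miR-146a knockout cultures. All 5 were well above background in each group but Bob1 knockout, where Cdh5 was not, and their part in the Lrmda levels was not tested. Bob1 wild-type was 15.8-fold and miR-146a knockout 19-fold above BL6 wild-type. Bob1 wild-type and miR-146a knockout cultures overlapped. Replicates of Lrmda varied more than those of the other bright members, with SDs of 0.73 in Bob1 knockout and 0.66 in BL6 wild-type cultures.

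Nnt was lower in miR-146a knockout than in all other cultures, and was present in all of them. Its brightest probe, A_52_P395228, read 4.04 and 4.16 in Bob1 wild-type, 4.55 and 4.46 in Bob1 knockout, 4.16 and 3.99 in BL6 wild-type, and 3.24 and 3.16 in miR-146a knockout cultures. The miR-146a knockout arrays lay 0.75 below the nearest other array, and the mean was 1.83-fold below BL6 wild-type. A_51_P113399, whose sequence is shown above, read 1.14 and 1.22, 1.48 and 1.42, 1.11 and 1.02, and 0.39 and 0.29 in the same order of groups, with the miR-146a knockout mean 1.66-fold below BL6 wild-type. A_51_P113395 read 1.58 and 1.69, 2.26 and 1.95, 1.46 and 1.69, and 0.84 and 0.69, which put it 1.75-fold lower. The 3 probes thus gave 1 pattern, and they correlated with each other at 0.97 or more over the 8 arrays. Bob1 wild-type and BL6 wild-type overlapped on 2 of the 3 probes. All 3 lie near the end of the transcript, from base 3318 on, so the exons missing from C57BL/6J were not measured by these probes.

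In this comparison the miR-146a knockout arrays shared both slides with BL6 wild-type. Slide 1 held the male miR-146a knockout and the female BL6 wild-type array, and slide 2 the reverse. A difference within a slide is therefore also one between the sexes. Within slide 1 and within slide 2 the Nnt differences were -0.82 and -0.64 for A_51_P113399, -0.77 and -0.85 for A_51_P113395, and -1.0 and -0.75 for A_52_P395228. Both miR-146a knockout arrays lay below all others at these probes, so the shared direction follows from that and nothing is read from it. A further probe described in the scanner files as an Nnt transcript but not named Nnt, A_52_P593890, lies 58 kb from A_52_P395228. It read -3.27 in Bob1 wild-type, -2.82 in Bob1 knockout, -3.27 in BL6 wild-type and -3.22 in miR-146a knockout cultures as group means, so it did not share the lower level. Its given position, chr13:120182279-120182293, is shorter than the probe, and whether it reads the same transcript as the 3 Nnt probes is uncertain.

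Atp8b3, Gm16867 and Sprr4 gave a signal well above background in miR-146a knockout cultures alone. Atp8b3 A_51_P371500 (chr10:79998293-79998352, minus strand) read -3.77 and -3.97 there, against -8.35 and -8.14 in Bob1 wild-type, -7.43 and -7.70 in Bob1 knockout, and -8.11 and -7.95 in BL6 wild-type cultures. It lay 3.45 above the nearest other array, a gap to arrays not well above background and so no measure of size. The bounds were at least 4.91-fold, at least 3.09-fold and at least 4.20-fold over those groups. The other Atp8b3 probe, A_52_P357128, near the end of the transcript, was not well above background on any array, and its levels of -7.54 to -5.7 did not set miR-146a knockout cultures apart.

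Gm16867 (A_52_P677074, chr14:69984182-69984241, minus strand) read -4.72 and -4.62 in miR-146a knockout cultures, against -8.30 and -8.12 in Bob1 wild-type, -7.44 and -7.84 in Bob1 knockout, and -8.00 and -7.82 in BL6 wild-type cultures. The bounds were at least 2.82-fold, at least 1.77-fold and at least 2.42-fold. Its probe overlaps a probe of Entpd4, a nucleotide hydrolase of the Golgi and lysosomes, on the opposite strand by 50 bases.

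Sprr4 read -3.49 and -4.21 in miR-146a knockout cultures and between -6.67 and -5.81 on the other 6 arrays, and none of those 6 was well above background. Under the scanner's looser flag for a signal above background, Sprr4 was detected on all 8 arrays, so its signal was then higher in miR-146a knockout cultures but not limited to them. The bounds were at least 4.99-fold over Bob1 wild-type, at least 3.13-fold over Bob1 knockout and at least 4.26-fold over BL6 wild-type. Its miR-146a knockout replicates differed by 0.72, the widest such gap among the 3 genes. Of the 4 keratinocyte markers, Lor was not well above background in BL6 wild-type and in miR-146a knockout cultures, and the other 3 were so in both. The summed marker level was 0.47 to 0.50 in miR-146a knockout and 0.68 to 0.75 in BL6 wild-type cultures. Over the 41174 probes, 17 (0.0413%) were well above background on both miR-146a knockout arrays alone, and 3 of these are the Atp8b3, Gm16867 and Sprr4 probes.

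Tmod4, 2.63 Mb from Sprr4 on chromosome 3, was measured in all cultures. It read -4.49 and -4.60 in Bob1 wild-type, -4.27 and -4.82 in Bob1 knockout, -4.74 and -4.78 in BL6 wild-type, and -2.56 and -2.52 in miR-146a knockout cultures. The first 3 groups lay close together, with Bob1 knockout overlapping both others, and the miR-146a knockout mean was 4.02-fold, 4.02-fold and 4.67-fold above them. Of the 4 muscle markers, Ckm and Myh4 were well above background in no group. The other 2, Acta1 and Tnnt3, were so on both arrays of each group but Bob1 knockout, where 1 of them was. The summed level of the 4 muscle markers was -2.93 to -2.92 in miR-146a knockout and -2.93 to -2.75 in BL6 wild-type cultures. Within slide 1 and within slide 2, again between arrays of opposite sex, the difference between miR-146a knockout and BL6 wild-type cultures was 2.23 and 2.22 for Tmod4, 1.19 and 1.31 for Tmem254a, and 3.89 and 4.61 for Lrmda. For Atp8b3 A_51_P371500, Gm16867, Sprr4, Jakmip3 A_52_P374053 and Sall3 A_52_P159365 it had the same direction on both slides, and its size is not given because 1 of the groups was not well above background. At all of these probes both arrays of 1 of the groups lay beyond all others. The shared direction on the slides follows from that, and nothing is read from it.

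The size of these differences depends on how dim signals are handled. No fitted member probe's difference between miR-146a knockout and BL6 wild-type changed sign in 174 recalculations on these same arrays. The genes were chosen for their gaps on these arrays, so the kept sign largely follows from the choice and nothing is read from it. For Atp8b3 A_51_P371500 this difference, taken against arrays not well above background and so no measure of size, was 4.16 in log2, but 0.30 with normexp background correction as planned, 0.64 with normexp after leaving out a few spots, a version chosen after seeing the data, and 0.06 in the authors' deposited table. For Jakmip3 A_52_P374053 it was -4.38, and -0.59, -1.01 and -0.08 in the same settings. For the brighter Tmem254a it was 1.25, and 0.90, 1.18 and 0.88.

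Few probes on the array stood as far apart as these. Both BL6 wild-type arrays lay over 1 log2 unit above the other 6 at 6 probes (0.0227%), Jakmip3 and Sall3 among them, and over 1 unit below at 4 probes (0.0151%), 2 of which are Tmem254a and Lrmda. Both miR-146a knockout arrays lay over 1 unit above the rest at 20 probes (0.0756%). Of these 20, 4 are member probes (Atp8b3, Gm16867, Tmod4 and Sprr4) and 5 lie on chromosome 11. The Nnt probes did not reach 1 unit, with gaps of 0.62 to 0.75, and 3.15% of tested probes had both miR-146a knockout arrays below all others by any amount. Since the genes were chosen for such gaps, nothing is read from these shares.

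**Figure D2:**
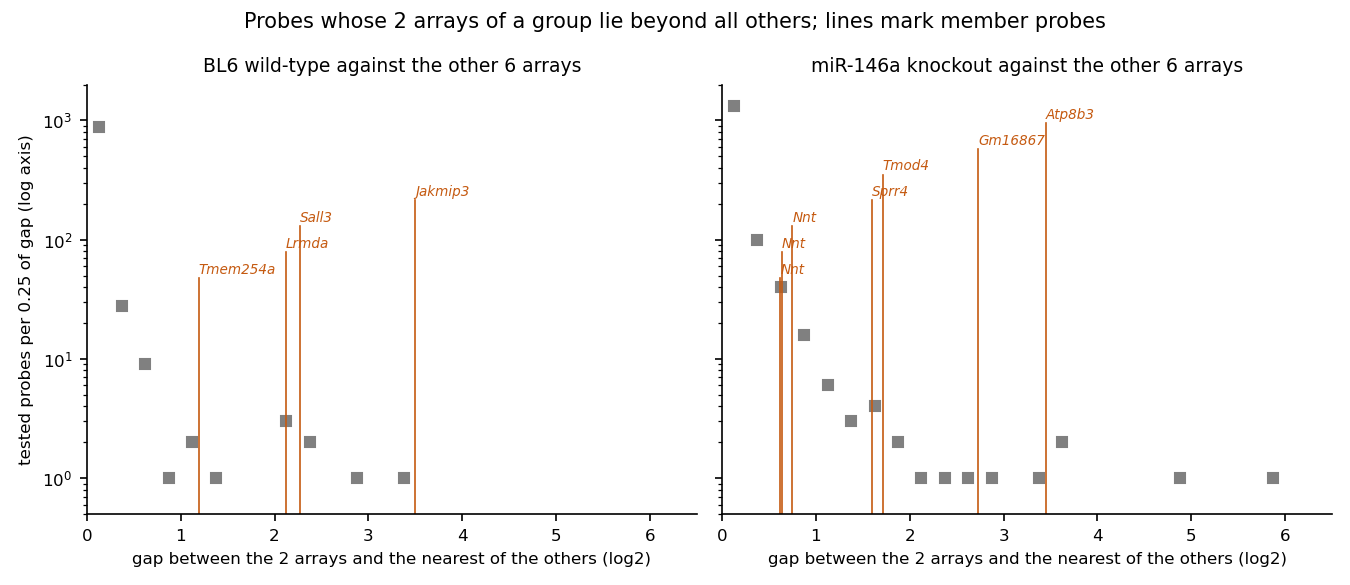
Number of tested probes (log axis) by the gap between the 2 arrays of a group and the nearest of the other 6 arrays, in bins of 0.25 log2, for BL6 wild-type (left) and miR-146a knockout (right); vertical lines mark member probes, and their height has no meaning. Jakmip3 at 3.5 has the widest gap in BL6 wild-type, whereas in miR-146a knockout cultures probes outside the 9 genes reach further than Atp8b3 at 3.45. Gaps to arrays not well above background, as for these 2 genes, are no measure of size.

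Between the 2 Bob1 groups the members detected in all cultures differed by less than 1 log2 unit. These groups lie on different slides, so genotype and slide cannot be told apart within them. Both Bob1 knockout arrays lay above all others for the 3 Nnt probes and for Tmem254a, by 0.05 to 0.30, as they did for 25.8% of tested probes. Bob1 knockout over Bob1 wild-type was 1.33-fold for Nnt A_52_P395228 and 1.20-fold for Tmem254a, and Bob1 wild-type over Bob1 knockout was 1.84-fold for Lrmda, where the arrays lay 0.12 apart. Tmod4 had the same mean in both, -4.54.

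Apart from leaving out chromosome 11, the choice of the genes made no use of position, and the probes around them were examined next. Within 2 Mb of the members, 551 tested probes were counted, excluding each member's own; these were 532 distinct probes, since some lie near 2 members. None was called between Bob1 wild-type and BL6 wild-type (limma adjusted p under 0.05), against 9 of 26528 (0.0339%) over the array. At an unadjusted limma p under 0.05, 18 of the 551 differed between the wild types, where 565 of 26528 did. For miR-146a knockout against BL6 wild-type 25 did, where 716 did over the array. For Bob1 knockout against Bob1 wild-type 140 did, where 7263 did over the array. Between miR-146a knockout and BL6 wild-type 2 of 551 were called, against 19 of 26528 (0.0716%). Both were near Gm16867 and entered the fit only through the miR-146a knockout arrays, the only ones where they were well above background. Their calls are thus set against arrays without such a signal and are no measure of size. Neither was called with normexp as planned or in the authors' deposited table. Between Bob1 knockout and Bob1 wild-type 24 were called, or 4.36% against 5.55% over the array. These include the Slc25a37 probe A_52_P622941 near Gm16867, which was well above background on no array of either Bob1 group. Around the other 8 genes no tested neighbour was called in the miR-146a comparison.

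Around Gm16867, a run of 6 probes over 116 kb (chr14:69967249-70082873) was higher on both miR-146a knockout arrays than on all others, while 2.48% of tested probes over the array were. This run was noticed after its values were seen. It holds all 6 probes of the array in that stretch, Gm16867 itself included. The brightest is a probe named Slc25a37, a mitochondrial iron importer (A_52_P622941, chr14:70080666-70080725, minus strand), which read -1.01 and -0.77 in miR-146a knockout cultures and -8.36 to -6.88 elsewhere, with no array elsewhere well above background. Its fitted value is not given, because it entered the fit only through the miR-146a knockout arrays. It was at least 33.2-fold above BL6 wild-type. The other 2 Slc25a37 probes lie 121 and 124 kb to the other side of Gm16867 and did not share this: A_51_P343429 ranged from 3.55 to 3.92 and A_52_P507688 from -2.02 to -1.58 over the 8 arrays.

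The other called probe, A_52_P762901, 39 kb from Gm16867 and without a gene name, read -2.49 and -2.50 in miR-146a knockout cultures. It too entered the fit only through these arrays, and it was at least 10.9-fold above BL6 wild-type. The unnamed probe A_51_P178377, 99 kb away, was 5.71-fold higher (limma adjusted p = 0.0675, not called). The 2 Entpd4 probes were 1.74-fold and 1.95-fold higher and were not called either (adjusted p = 0.828 and 0.292). Beyond the run the levels were alike: Loxl2, 108 and 111 kb away, differed by 0.19 and 0.43 (adjusted p = 1 for both). RefSeq's table also lists a copy named Entpd4b, so which copy the Entpd4 probes read is uncertain.

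Around Tmem254a, the Plac9a probe 36 kb away read 0.25 in Bob1 wild-type, -0.91 in Bob1 knockout, -3.68 in BL6 wild-type and -1.93 in miR-146a knockout cultures, the same order as Tmem254a for the 2 lowest groups. It was not called in either comparison with BL6 wild-type, and its replicates were far apart (SD 0.96 in Bob1 wild-type and 1.1 in miR-146a knockout cultures). Anxa11, 38 kb away, stayed between 0.72 and 1.21 as group means. A Duxbl1 probe 65 kb away was well above background on the Bob1 wild-type arrays alone (-5.76 and -5.55, against -7.99 to -6.31 elsewhere) and was not called against BL6 wild-type. Around Nnt, an unnamed probe 14 kb away, A_51_P471728, read -1.42 on Bob1 wild-type array B and -5.74 to -4.84 on the other 7. The 3 Paip1 probes at 111 to 122 kb were not called (adjusted p = 1 for each).

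**Figure D3:**
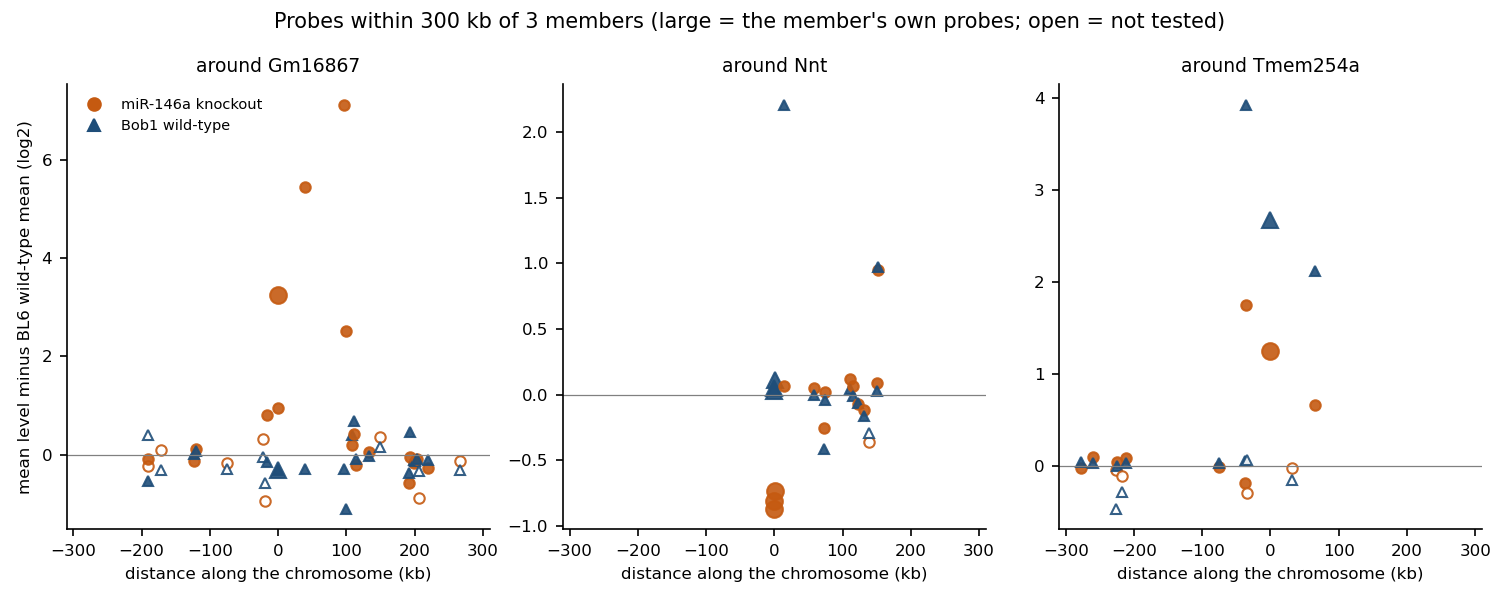
Mean level minus the BL6 wild-type mean in log2 for probes within 300 kb of Gm16867, Nnt and Tmem254a, against distance in kb, with miR-146a knockout as circles and Bob1 wild-type as triangles; large symbols are the member's own probes and open symbols were not tested. Around Gm16867 the highest circles, at 96 and 39 kb, are set against BL6 wild-type arrays on which these probes were not well above background, so only their bounds of at least 33.2-fold and at least 10.9-fold can be read, and around Nnt the 3 Nnt probes are the lowest circles. The high triangle 14 kb from Nnt rests on 1 array, and those at -36 and 65 kb from Tmem254a are Plac9a and Duxbl1.

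Genes chosen for a signal by group had to be alike on both arrays of a group, 1 female and 1 male, so a small difference between the sexes follows from the choice and is given as a description. Of the 11 member probes fitted, 0 were called (0 at an unadjusted p under 0.05), against 8 of 26528 (0.0302%) over the array, and nothing is read from this count. For 5 of the 11 the value rests mostly on 3 groups that were not well above background. The fitted differences, male minus female, ran from -0.17 (Tmod4, SE 0.12) to 0.01 (Gm16867, SE 0.12). Lrmda had the widest SE, 0.32, with the male array 1.03 higher in Bob1 knockout and 0.93 lower in BL6 wild-type cultures. The Jakmip3 and Sall3 probes seen in BL6 wild-type differed between the sexes there by -0.47 and -0.19, so both sexes carried the signal.

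**Figure D4:**
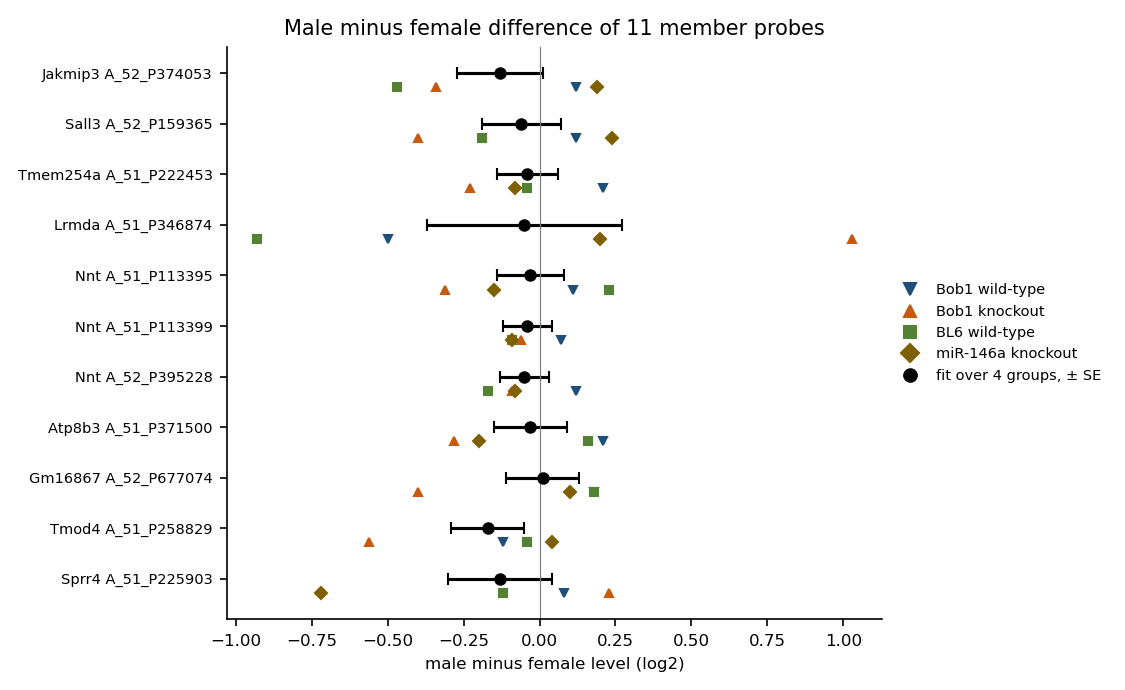
Male minus female level in log2 of the 11 fitted member probes, as the fitted value over the 4 groups with its SE (black) and as the single difference in each group (coloured symbols). The fitted values lie between -0.17 and 0.01, and the single differences of Lrmda spread from -0.93 to 1.03.

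Paralogs of the members and partners of their protein families, 41 genes of which 38 are on the array and 28 were tested, were taken as a comparison list. None was called between Bob1 wild-type and BL6 wild-type (1 at an unadjusted p under 0.05) or between miR-146a knockout and BL6 wild-type (1 likewise). Over all 26528 tested probes, 565 and 716 reached that unadjusted p. Their median differences were -0.05 and -0.04, beside -0.02 and -0.03 over all tested probes. Between Bob1 knockout and Bob1 wild-type 3 of 28 rose and 0 fell, where 2.82% of all tested probes rose. These were Atp8a2, another lipid flippase (2.94-fold, limma adjusted p = 0.00338), Jakmip1 (1.91-fold, 0.0398) and Sall2 (1.79-fold, 0.0409). Jakmip1, unlike Jakmip3, was bright in all groups, at 1.01 ± 0.18 in Bob1 wild-type, 1.95 ± 0.11 in Bob1 knockout, 1.25 ± 0.26 in BL6 wild-type and 1.11 ± 0.18 in miR-146a knockout cultures (SD, n = 2). These calls were not firm: 1 paralog was called without either Bob1 wild-type array, either Bob1 knockout array or either miR-146a knockout array, 2 without either BL6 wild-type array, and 0 with the slide as a block.

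A broad list of NADPH genes was the comparison list for Nnt. It holds genes of mitochondrial and cytosolic NADPH, of glutathione, of superoxide and peroxide handling, and a few related mitochondrial genes. It is thus not limited to mitochondrial NADPH. Of 33 genes 31 were tested and 0 were called in the miR-146a knockout against BL6 wild-type (0 at an unadjusted p under 0.05). The median difference was 0.00 beside -0.03 over all probes, with single genes between -0.23 and 0.64. None was called between the wild-type groups either (0 at an unadjusted p under 0.05), nor between Bob1 knockout and Bob1 wild-type (5 at an unadjusted p under 0.05). In that last comparison 7263 of all 26528 tested probes reached the unadjusted p.

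The genes with the most similar pattern over the 8 arrays were taken from 374 named genes with an SD of at least 1, by Pearson correlation, which here mostly reflects which 2 arrays stand apart. For Jakmip3 and Sall3, Akap3, a sperm anchoring protein, was among them (0.945 and 0.954), and it too was seen in BL6 wild-type alone. For Gm16867, Tmod4 and Sprr4 the nearest was Leap2, an antimicrobial peptide of the liver on chromosome 11 (0.995, 0.972 and 0.988), followed by Gm19331 for Gm16867 and Sprr4 (0.914 and 0.896) and Zfp354a for Tmod4 (0.95). Leap2 was also nearest to the detected Atp8b3 probe (0.999), a probe taken after its values were seen, because the rule picked the undetected one, whose nearest were Abca8a and Dnajb8 (0.875 and 0.789). Nnt was nearest to Hmmr, a hyaluronan receptor on chromosome 11 (0.96), which fell from 2.48 in BL6 wild-type to -1.63 in miR-146a knockout cultures, and then to 9430027B09Rik (0.788). Tmem254a was nearest to Plac9a and Shroom3 (0.81 and 0.778) and Lrmda to Rbp4 and Fap (0.743 and 0.74). Among the members themselves, Jakmip3 A_52_P374053 and Sall3 A_52_P159365 each ran opposite to Lrmda (-0.96 and -0.97 over 8 arrays). These genes were chosen for standing apart on the same 2 BL6 wild-type arrays. The opposite course follows from that choice, and nothing is read from it.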

How the data were processed

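Cy3-labelled RNA of 8 cultures had been hybridised to one-colour Agilent arrays. Per the file headers, the deposited intensity is the processed signal of Feature Extraction 10.5.1.1, after background subtraction. The table of values deposited by the authors is on a log2 scale, with low signals compressed and its normalization not given in the sources used here; per the submitters' processing notes limma was used. Column medians of that table were all 9.59, and it served as an alternative.

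Control and outlier spots (71 to 156 per array) were left out, no spot was saturated, and log2 signals were centred on each array's 75th percentile. Probes with a signal well above background on the 2 arrays of any 1 group (26528) entered a limma 3.58.1 fit (R 4.3.3) with 4 group means. A second fit added sex. P-values were adjusted by Benjamini-Hochberg over all tested probes, threshold 0.05. The fit was checked on simulated data. Coordinates are mm9, from the scanner files; RefSeq's GRCm38.p6 table gave names for 27686 probes, and 6248 probes had no symbol.

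The members, lists and tests were chosen with earlier results of these data known. Named genes were the members, the 2 most correlated genes of each member's brightest probe, the called neighbour with the smallest adjusted p in the comparisons with BL6 wild-type, and up to 4 called genes per list; 1 correlated gene is not reported here. Arrays carry no read depth, and their number limits the precision. Alternatives were other background corrections and scalings, the deposited table, no filter, 1 probe per gene, a replicate or slide block and leaving out each array.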

Additional observations from a re-analysis of the deposited data

How the results depend on the processing

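As largely follows from the choice of the genes, no fitted member probe's level difference between miR-146a knockout and BL6 wild-type changed sign. Of 174 recalculations each, 6 between the wild types and 7 between the Bob1 groups did, to values of at most 0.25 in size. Normexp, planned on all spots, gave 0 calls in all 4 comparisons, 0 paralogs and 0 neighbours in the Bob1 and miR-146a comparisons. Its values correlated with the processed signals at only 0.628 on 1 array, so a version without the up to 5 spots per array whose local background reached their signal was added after seeing this (0.952 to 0.956). That version called 5438 probes, 8 paralogs, 3 NADPH genes and 122 neighbours for Bob1, 220 probes for sex and 4 neighbours for miR-146a. The deposited table called 2 probes between wild types, 1 for miR-146a and 0 for sex, with 0 neighbours for miR-146a and 1 NADPH gene for Bob1. Without the filter, 12 probes were called for miR-146a, and for Bob1 713 probes, 1 paralog and 13 neighbours. Quantile scaling called 0 for sex. With 1 probe per gene 1 neighbour was called for miR-146a. With the slide as a block, 124 probes, 0 paralogs and 4 neighbours were called for Bob1 and 0 probes for sex. The replicate letters coincide with sex, so a replicate effect and a sex effect cannot be told apart. Male minus female differences correlated at 0.07 to 0.36 between groups. With the letters as a replicate block 2276 probes, 37 neighbours and 1 NADPH gene were called for Bob1. Leaving out single arrays gave 8 to 57 calls between wild types (57 without Bob1 wild-type array A, 21 without BL6 wild-type array A), 9 to 28 for miR-146a (9 without its array A), 479 to 1015 for Bob1 and 0 for sex. It gave 1 to 2 paralogs and 8 to 16 neighbours for Bob1, and 0 to 1 neighbours between wild types. The share of neighbours called was 0.0709% between wild types within 5 Mb (1 call, itself a member probe) and 0.563% for miR-146a within 1 Mb. Under the looser detection flag, 0.163% of probes were present in Bob1 knockout, 0.109% in BL6 wild-type and 0.124% in miR-146a knockout cultures alone, and Sprr4 and the undetected Atp8b3 probe were above background on all 8 arrays. Causes were not tested. With 2 arrays per group and dim probes, levels under about -6 have no usable order.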
